A study of Mus musculus with 30 samples.

Results

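Mast cells were followed in the mouse ventral prostate (VP) through 8 genes that mark them, taken by symbol: Cpa3, Cma1, Mcpt4, Tpsb2, Kit, Fcer1a, Ms4a2 and Hdc. All 8 were found among the 39179 gene identifiers counted. The samples were VPs of 30 male C57BL/6 mice fed normolipidic diets after weaning, that differed in their source of fat, which was oil of linseed (LO), oil of soybean (SO) or pig fat, that is lard (PF, labelled Por Fat). Each diet was given for 12 or 32 weeks to separate mice, with 5 mice in each of the 6 groups, and no group was kept without a test diet. RNA of the whole VP was sequenced, and each mouse had between 27590631 and 41301707 counts assigned to genes. The mice numbered 1 stood apart from the others in every group, with 5.91 to 8.18 CPM (counts per 1000000 counts on genes) of Il3ra, a cytokine receptor gene, against 0.843 to 2.40 CPM in the other 24 mice. They were not all high or all low for any of the 8 genes, and what the number stands for is not given in the labels. In RNA from whole tissue, fewer mast cells and less RNA per mast cell cannot be told apart.

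Mast cells are resident immune cells of connective tissue that store histamine and serine proteases in secretory granules. They release these granules when antigen cross-links IgE held by the high-affinity IgE receptor, and they depend for survival on the receptor tyrosine kinase KIT and its ligand, stem cell factor. The granules of mast cells of the connective tissue type hold chymases, tryptase and carboxypeptidase A, whereas mast cells of mucosal surfaces use the chymase genes Mcpt1 and Mcpt2. Among the 8 genes, Cpa3 encodes mast cell carboxypeptidase A, Cma1 and Mcpt4 encode chymases, Tpsb2 encodes a tryptase, and Hdc encodes histidine decarboxylase, which makes histamine. Fcer1a and Ms4a2 encode the alpha and beta chains of the IgE receptor. KIT is also carried by melanocytes, germ cells, interstitial pacemaker cells and blood progenitors.

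All 8 genes are protein coding, and their positions are given on GRCm38 with the annotation of GENCODE M21. Cma1 (chr14:55941451-55944675, minus strand) and Mcpt4 (chr14:56059629-56062313, minus strand) lie 115.0 kb apart in the chymase cluster. Cpa3 is at chr3:20215620-20242181 (minus strand) and Tpsb2 at chr17:25366305-25369098 (plus strand). The receptor genes are at chr5:75574916-75656722 (Kit, plus strand), chr1:173221284-173227214 (Fcer1a, minus strand) and chr19:11615523-11623719 (Ms4a2, minus strand), and Hdc is at chr2:126593667-126619299 (minus strand). Granule proteases belong to families of close paralogs, whose reads could be assigned to the wrong copy. Of all stretches of 100 bases in the annotated transcripts, 0 of 1686 of Tpsb2, 0 of 991 of Cma1 and 0 of 1416 of Cpa3 occurred in another gene, and 1 of 1009 of Mcpt4 was shared with Cma2.

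The 3 granule protease genes with a promoter sequence in the RefSeq table for GRCm38.p6 are shown because their RNA levels moved together from mouse to mouse. Each line gives the bases that end at the base before the annotated gene, read 5′ to 3′ on the strand of the gene, and capitals mark GATA motifs (GATAA or GATAG with A or T before it, on either strand). The windows are chr3:20242182-20242431 for Cpa3, chr14:55944676-55944925 for Cma1 and chr14:56062314-56062560 for Mcpt4, all on the minus strand.
Cpa3: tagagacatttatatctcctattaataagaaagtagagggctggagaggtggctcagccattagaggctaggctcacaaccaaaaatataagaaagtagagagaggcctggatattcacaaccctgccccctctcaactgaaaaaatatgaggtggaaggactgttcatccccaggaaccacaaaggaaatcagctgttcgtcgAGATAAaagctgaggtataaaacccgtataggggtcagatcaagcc
Cma1: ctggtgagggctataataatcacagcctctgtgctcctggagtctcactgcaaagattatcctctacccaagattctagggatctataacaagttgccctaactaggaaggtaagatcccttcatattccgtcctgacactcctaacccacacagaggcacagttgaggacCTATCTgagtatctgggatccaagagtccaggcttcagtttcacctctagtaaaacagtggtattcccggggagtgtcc
Mcpt4: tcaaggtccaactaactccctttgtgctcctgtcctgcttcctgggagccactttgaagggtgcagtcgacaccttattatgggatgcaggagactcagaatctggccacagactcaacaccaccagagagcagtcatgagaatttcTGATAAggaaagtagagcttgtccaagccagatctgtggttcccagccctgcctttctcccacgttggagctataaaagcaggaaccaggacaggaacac
Each of the 3 windows held 1 GATA motif, which began 46 bases before the end of the window in Cpa3, 79 in Cma1 and 100 in Mcpt4. Over windows of 250 bases before the RefSeq start, 7 members had a sequence, and 1 or more GATA motifs were found in Cpa3, Cma1, Mcpt4, Fcer1a, Ms4a2 and Hdc but not in Kit. The window of Hdc (chr2:126618679-126618928) lies inside the gene as annotated by GENCODE M21, and that of Kit (chr5:75574737-75574986) runs into its gene. Such a motif was present in 26.5% of all 32851 promoter windows. The motifs CACGTG and CATGTG, searched on both strands, were found in Fcer1a alone among these members and in 17.6% of all windows. The window of Kit had a GC content of 70.8%, against 44.4% for Cpa3, 48% for Cma1 and 51.2% for Mcpt4. These are matches of letters and were not measured as binding.

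Mast cell RNA was scarce in the VP, and its leading part was granule protease RNA. Levels between genes were compared in CPM per kb of exon, as mean ± SD over 30 mice. Mcpt4 was at 1.83 ± 1.26 on this scale, Cma1 at 1.63 ± 1.28, Cpa3 at 0.973 ± 0.622 and Tpsb2 at 0.825 ± 0.531. The receptor gene Kit was at 0.297 ± 0.108, Fcer1a at 0.151 ± 0.120, Hdc at 0.0524 ± 0.0396 and Ms4a2 at 0.0154 ± 0.0164. The 4 proteases thus headed the order, and the SDs of neighbours overlapped. Within single mice Mcpt4 exceeded Cma1 in 25 of 30 mice, Cma1 exceeded Cpa3 in 29, Cpa3 exceeded Tpsb2 in 20, and Tpsb2 exceeded Kit in 29.

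**Figure D1:**
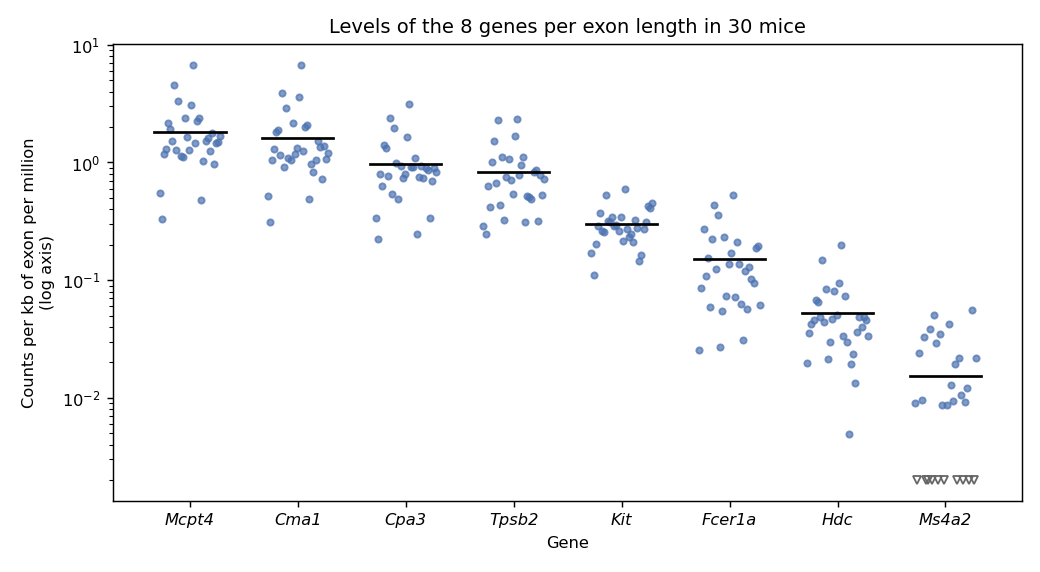
CPM per kb of exon (log axis) of each gene in 30 mice, with 1 point per mouse and a black line at the mean; open triangles at the lower edge stand for the 10 mice with 0 counts of Ms4a2. The 4 protease genes lie above Kit, and Ms4a2 is the lowest.

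Both chains particular to the IgE receptor had too few counts for a test. Fcer1a had 1 to 18 counts per mouse, with 10 counts or more in 3 of 30 mice, and Ms4a2 had 0 to 5 counts and was at 0 in 10 mice. A count of 0 allowed a level of up to 0.0726 to 0.109 CPM, depending on the depth of the mouse. Hdc was also thinly covered, with 1 to 43 counts, but passed edgeR's filter on low counts. Thus 6 of the 8 genes were tested at 12 weeks, at 32 weeks and over all mice. Their counts per mouse were 12 to 161 for Cpa3, 12 to 250 for Cma1, 13 to 252 for Mcpt4, 14 to 127 for Tpsb2 and 35 to 180 for Kit.

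The remaining granule protease genes, the mucosal chymases included, were near 0. Of the 7 other granule protease genes examined (Tpsab1, Tpsg1, Cma2, Mcpt1, Mcpt2, Mcpt9 and Ctsg), 0 passed the filter. The highest of them on average was Tpsab1, another tryptase gene, which had at most 5 counts in a mouse, and Mcpt9 was at 0 in all 6 groups. The mucosal chymase genes Mcpt1 and Mcpt2 had at most 3 and 5 counts per mouse outside the PF group at 12 weeks, in which 1 mouse had 20 counts of Mcpt1 and 14 of Mcpt2. Basophils share several of these genes, and their protease genes were as low: Mcpt8 had 0 to 2 counts and Prss34 0 to 8 counts per mouse.

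After 12 weeks the granule protease genes did not separate the diets. Cma1 was at 0.561, 0.339, 1.15, 1.42 and 1.96 CPM in the LO mice 1 to 5, at 0.533, 1.05, 0.896, 1.14 and 1.66 CPM in the SO mice, and at 1.20, 1.14, 2.37, 1.28 and 1.44 CPM in the PF mice. Mcpt4 was at 0.612, 0.367, 1.32, 1.45 and 2.39 CPM in LO, at 0.533, 1.14, 1.67, 1.80 and 1.37 CPM in SO, and at 1.25, 1.23, 2.63, 1.84 and 1.41 CPM in PF. The ranges of the 3 diets overlapped for both chymase genes, and mice 1 and 2 of LO and mouse 1 of SO were low for both. Cpa3 was at 1.03 ± 0.702 CPM in LO, 1.08 ± 0.412 in SO and 1.20 ± 0.297 in PF (SD, n = 5). Tpsb2 was at 0.827 ± 0.493 CPM in LO, 0.848 ± 0.297 in SO and 1.08 ± 0.441 in PF (SD, n = 5).

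At 12 weeks, 0 of the 6 genes tested passed an adjusted p-value of 0.05 in any pair of diets (edgeR's quasi-likelihood test with Benjamini-Hochberg adjustment), where 0% of all 15873 genes tested did. At an unadjusted p-value under 0.05, 1 of the 6 passed in PF against SO, where 7.99% of all genes did, and 0 in PF against LO (9.24% of all genes) and in LO against SO (4.28%). The 1 gene was Hdc, with a log2 fold change of 1.18 ± 0.48 (SE) and an adjusted p-value of 0.495 in edgeR. This value rested on few counts, since Hdc had 1, 4, 5, 3 and 9 counts in the SO mice against 5, 7, 9, 21 and 12 in the PF mice. No SO mouse, at most at 0.233 CPM, reached the level that the filter asks for, so Hdc was tested through LO and PF mice. In the fit of only the PF and SO mice, 5 members were tested and Hdc was not. Its low p-value is therefore no support for a difference. The log2 fold changes of the 4 proteases ranged from 0.11 (Cpa3) to 0.45 (Cma1) for PF against SO, from 0.27 (Cpa3) to 0.51 (Mcpt4) for PF against LO, and from -0.18 (Mcpt4) to -0.05 (Cma1) for LO against SO. None of these differences passed the test, which does not show that the diets were equal. DESeq2 called 0 of the members in any pair of diets at 12 weeks, where it called 1.31% of all genes for PF against SO, 0.522% for PF against LO and 0% for LO against SO.

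After 32 weeks the proteases were high in some LO and PF mice and in no SO mouse. Cma1 was at 2.06, 1.27, 4.28, 0.999 and 3.19 CPM in the LO mice 1 to 5, at 1.48, 0.793, 1.49, 1.17 and 1.31 CPM in the SO mice, and at 3.90, 7.38, 1.37, 2.18 and 2.28 CPM in the PF mice. Mcpt4 was at 2.15, 1.69, 5.04, 1.40 and 3.70 CPM in LO, at 1.99, 1.08, 1.62, 1.66 and 1.86 CPM in SO, and at 3.41, 7.44, 1.62, 2.49 and 2.63 CPM in PF. The SO mice were close to each other, while PF mouse 2 and LO mouse 3 stood highest in their groups. Cpa3 was at 2.0, 1.15, 3.59, 0.811 and 2.98 CPM in LO, at 1.30, 0.507, 1.06, 1.36 and 1.25 CPM in SO, and at 2.52, 4.75, 1.40, 1.39 and 1.65 CPM in PF. Tpsb2 was at 2.42, 1.07, 3.62, 0.687 and 1.76 CPM in LO, at 1.37, 0.507, 1.25, 0.844 and 1.16 CPM in SO, and at 2.69, 3.75, 1.26, 1.52 and 1.76 CPM in PF. PF and SO overlapped for Cma1, Mcpt4 and Tpsb2 through PF mouse 3, and LO overlapped both other diets in each of the 4 genes.

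**Figure D2:**
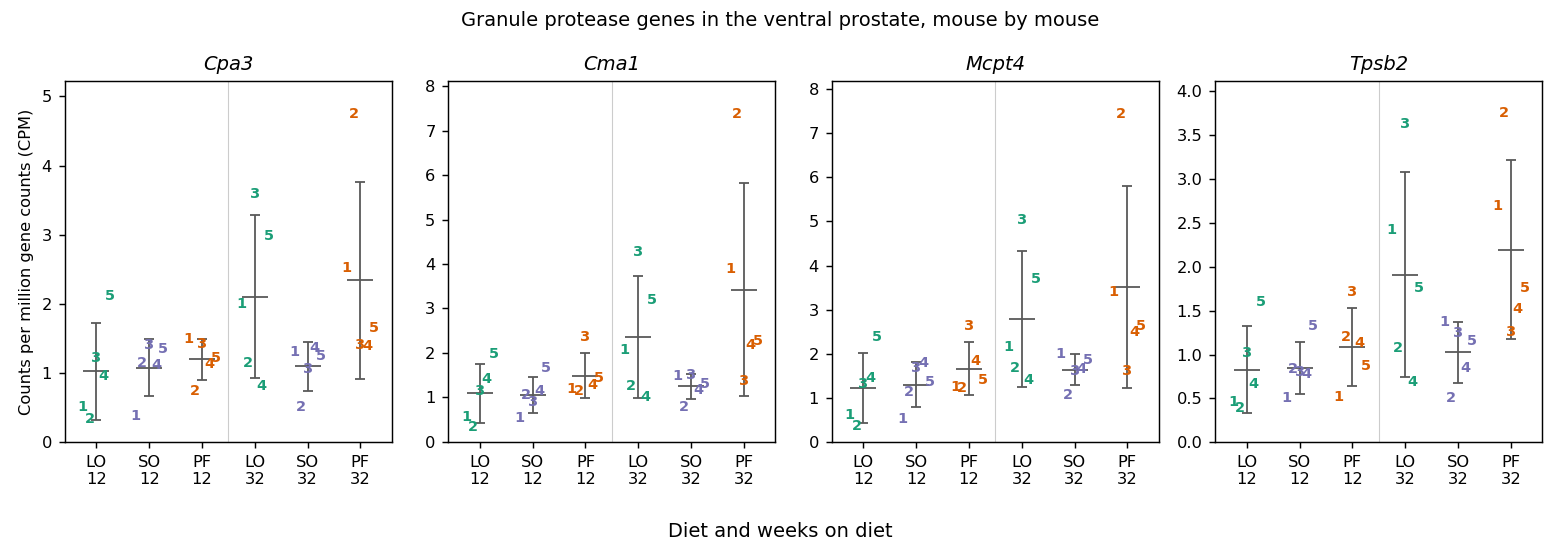
CPM of the 4 granule protease genes by diet and weeks on the diet; each digit is 1 mouse, placed at its value and named by its replicate number, and the cross bar and whiskers are the mean and SD of 5 mice. SO mice at 32 weeks lie between 0.507 and 1.99 CPM in all 4 panels, and PF mouse 2 at 32 weeks is the highest of 30 mice in each.

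PF against SO after 32 weeks gave the largest differences among the diet comparisons for each of the 4 proteases. In edgeR the log2 fold change was 1.55 ± 0.42 (SE) for Cma1, 1.20 ± 0.41 for Cpa3, 1.20 ± 0.37 for Mcpt4 and 1.22 ± 0.40 for Tpsb2. Hdc had a log2 fold change of 1.10 ± 0.44 and Kit of -0.15 ± 0.25. Adjusted p-values of edgeR were 0.304 for Cma1, 0.349 for Mcpt4, 0.362 for Tpsb2, 0.375 for Cpa3, 0.417 for Hdc and 0.857 for Kit. Thus 0 of the 6 genes passed, and neither did any of the 16218 genes tested (0%). At an unadjusted p-value under 0.05, 5 of the 6 passed, against 10.8% of all genes, and the median log2 fold change of the 6 was 1.20, against -0.00 for all genes tested. The 5 genes, the proteases and Hdc, are not separate results, because they moved together over the same mice. At 32 weeks Pearson's r of log2 CPM was 0.904 to 0.983 among the proteases and 0.753 to 0.86 for Hdc with them.

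DESeq2 called 1 member in the same comparison, Cma1, with an adjusted p-value of 0.0347, where 0.726% of all genes were called. The other proteases had adjusted p-values of 0.0975 (Mcpt4), 0.127 (Tpsb2) and 0.152 (Cpa3) in DESeq2. The call of Cma1 was held in 2 of the 10 DESeq2 fits that left out 1 of the PF or SO mice and was lost in the other 8, with adjusted p-values of 0.0539 to 0.183. It was also lost in DESeq2 without the mice numbered 1 of all diets, with a log2 fold change of 1.55 and an adjusted p-value of 0.0989. Without PF mouse 2, the log2 fold changes in edgeR were 1.18 ± 0.39 for Cma1, 0.88 ± 0.39 for Cpa3, 0.84 ± 0.34 for Mcpt4, 1.03 ± 0.41 for Tpsb2 and 0.66 ± 0.40 for Hdc. For Kit, which was lower in PF with all mice as well, the value was -0.43 ± 0.21. Cpa3 was the only member whose groups did not overlap, with every PF mouse at or above 1.39 CPM and every SO mouse at or below 1.36 CPM, and 0.0987% of all genes tested separated PF from SO in this direction. In PF against LO and LO against SO at 32 weeks 0 members were without overlap, against 0.0617% and 0.395% of all genes with PF or LO wholly above, and at 12 weeks 0 members were, against 1.15% for PF above SO, 0.183% for PF above LO and 1.06% for LO above SO.

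The remaining pairs of diets at 32 weeks gave smaller values for the proteases. For PF against LO the log2 fold changes ranged from 0.31 ± 0.40 (Cpa3) to 0.69 ± 0.41 (Cma1), and 0 of the 6 genes passed an unadjusted p-value of 0.05, against 8.6% of all genes. For LO against SO they ranged from 0.71 ± 0.37 (Mcpt4) to 0.89 ± 0.41 (Cpa3), and 1 of the 6 genes, Cpa3, passed an unadjusted p-value of 0.05, against 3.48% of all genes. In both comparisons 0 of the 6 genes and 0% of all genes passed the adjusted p-value of edgeR, and DESeq2 called 0 members, where it called 0.585% and 0.0234% of all genes. The 3 diet comparisons at a time point share their mice in pairs, so they are not independent of each other.

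Summed over the 4 proteases, the level was 9.17 ± 5.10 CPM in LO, 5.01 ± 1.25 in SO and 11.5 ± 7.08 in PF after 32 weeks (SD, n = 5), and 4.17 ± 2.61, 4.29 ± 1.42 and 5.44 ± 1.56 CPM after 12 weeks. The PF group at 32 weeks came to 8.52 ± 2.90 CPM without mouse 2. PF mouse 2 had the highest level of all 30 mice for 7 of the 8 genes (all but Ms4a2), and LO mouse 2 at 12 weeks had the lowest for Cpa3, Cma1, Mcpt4, Tpsb2 and Kit. The extremes were 21.8-fold apart for Cma1, 20.2-fold for Mcpt4, 14-fold for Cpa3, 9.47-fold for Tpsb2 and 5.37-fold for Kit. Differences between mice of 1 group were larger than counting error, since the variance of counts within groups was 17.9 times that of counting alone for Cma1, 18.1 times for Mcpt4, 13.0 times for Cpa3, 10.3 times for Tpsb2, 10.7 times for Kit, 3.70 times for Hdc, 2.35 times for Fcer1a and 1.81 times for Ms4a2.

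Markers of other cell types were set beside the proteases in PF and SO at 32 weeks, and their part in the differences was not tested. The 5 adipocyte markers (Adipoq, Plin1, Fabp4, Lep and Cidec) summed to 45.8 to 584 CPM in the PF mice at 32 weeks, with the highest value in mouse 2 and the lowest in mouse 3, and to 29.9 to 226 CPM in the SO mice. PF mouse 2, the highest in the proteases, was also the highest PF mouse for the macrophage (207 CPM), leukocyte (71.3 CPM) and connective tissue markers (1612 CPM) and the lowest for the epithelial markers, at 134962 CPM against 219206 to 271737 CPM in the other PF mice. Of the adipocyte markers, 4 of 5 were higher in PF than in SO and 0 of 5 passed the adjusted p-value, with a median log2 fold change of 1.84 in edgeR and values of 1.90 for Fabp4 and 1.78 for Adipoq, the most abundant of them. The 6 connective tissue markers summed to 736 to 1612 CPM in PF and 837 to 1470 CPM in SO, with a median log2 fold change of 0.08. The 5 macrophage markers summed to 81.9 to 207 CPM in PF and 70.7 to 186 CPM in SO, and the 4 leukocyte markers to 24.8 to 71.3 CPM in PF and 23.7 to 112 CPM in SO, with median log2 fold changes of -0.02 and -0.47. Of the connective tissue markers 6 of 6 were higher in PF than in SO, of the macrophage markers 2 of 5 and of the leukocyte markers 0 of 4. None of them passed the adjusted p-value of edgeR, where 0% of all genes did. None of the markers of these lists was at 0 in all mice of a group.

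Kit had overlapping values in all groups and passed no test at the adjusted p-value. Its unadjusted p-value in edgeR was under 0.05 only for 32 against 12 weeks in SO. At 12 weeks it was at 1.53, 0.989, 1.79, 2.57 and 3.35 CPM in the LO mice 1 to 5, at 1.88, 2.90, 2.45, 1.29 and 1.45 CPM in SO, and at 3.04, 2.59, 2.63, 2.33 and 3.04 CPM in PF. At 32 weeks it was at 2.33, 2.28, 4.75, 2.81 and 2.76 CPM in LO, at 2.44, 2.76, 3.83, 3.67 and 4.02 CPM in SO, and at 1.91, 5.31, 2.44, 2.07 and 2.20 CPM in PF. The SO mice, low for the proteases at 32 weeks, had the highest group mean of Kit, 3.34 ± 0.701 CPM, and the groups overlapped. Its log2 fold changes between diets ranged from -0.20 ± 0.25 (LO against SO) to 0.05 ± 0.25 (PF against LO) at 32 weeks and from -0.03 ± 0.27 (LO against SO) to 0.46 ± 0.27 (PF against LO) at 12 weeks, and none passed the test. Kitl, the gene of its ligand, was far more abundant, at 37.2 to 44.1 CPM as group means. Melanocyte genes, which mark other cells with KIT, were scarce, with at most 33 counts of Dct, 4 of Mlana and 9 of Tyr in a mouse. The genes listed for interstitial pacemaker cells were not scarce. Etv1 was at 5.40 ± 1.39 CPM and Ano1, which epithelia also use, at 202 ± 59.9 CPM (SD, 30 mice).

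The histamine enzyme gene Hdc was low in every group. Its counts were 5, 8, 8, 11 and 14 in the LO mice at 12 weeks and 14, 11, 26, 9 and 15 in the LO mice at 32 weeks. They were 25, 43, 6, 18 and 7 in the PF mice and 9, 8, 10, 9 and 7 in the SO mice at 32 weeks. The SO mice at 12 weeks formed the lowest group, at 0.125 ± 0.0753 CPM (SD, n = 5), and PF at 32 weeks the highest, at 0.550 ± 0.438 CPM. Fcer1a, which was not tested, was at 0.241 ± 0.157 CPM in LO, 0.128 ± 0.0594 in SO and 0.224 ± 0.179 in PF at 32 weeks, and at 0.128 ± 0.0918, 0.0800 ± 0.0426 and 0.104 ± 0.0809 CPM at 12 weeks. Ms4a2 had group means of 0.0235 to 0.0517 CPM, below the level that a count of 0 allowed.

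**Figure D3:**
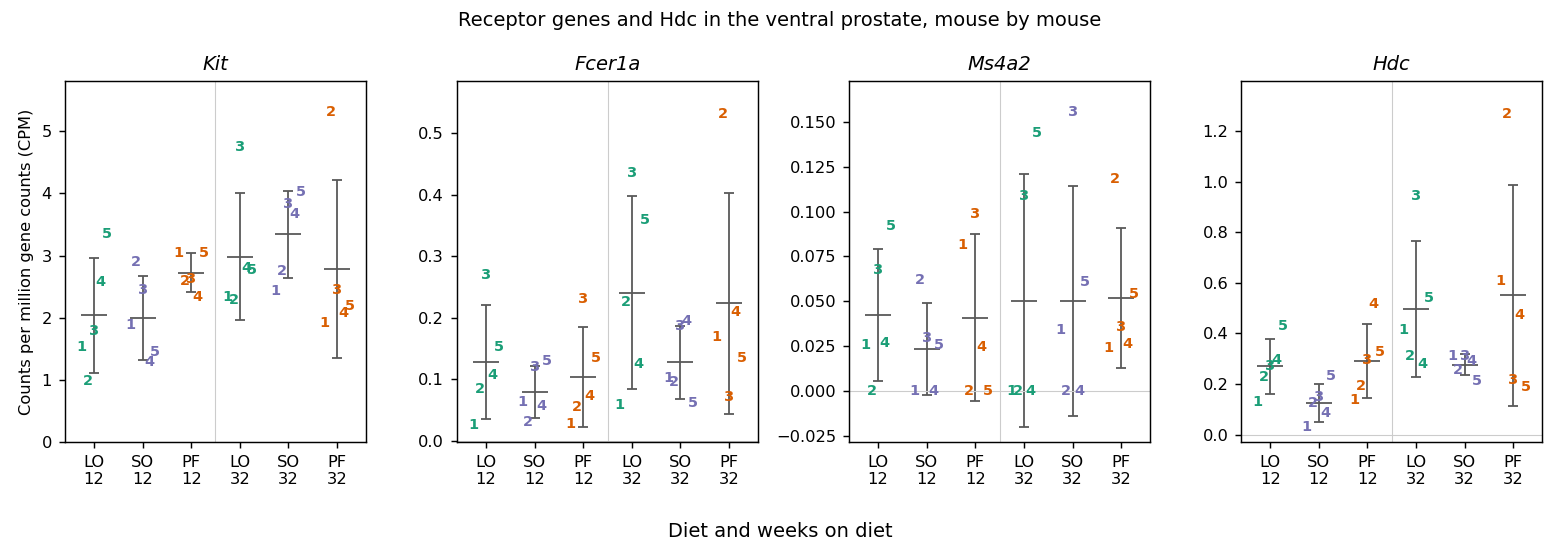
CPM of the receptor genes Kit, Fcer1a and Ms4a2 and of Hdc by diet and weeks on the diet; each digit is 1 mouse, named by its replicate number, and the cross bar and whiskers are the mean and SD of 5 mice. Kit is highest on average in SO at 32 weeks, and Ms4a2 lies at 0 in 10 mice.

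Between 12 and 32 weeks the proteases had higher values in LO and PF, and close to equal values in SO, without passing the test. In LO the log2 fold changes of 32 against 12 weeks were 1.02 ± 0.41 for Tpsb2, 1.01 ± 0.42 for Mcpt4, 0.94 ± 0.42 for Cma1 and 0.86 ± 0.43 for Cpa3 (edgeR, SE). In PF they were 1.12 ± 0.42 for Cma1, 0.98 ± 0.41 for Mcpt4, 0.94 ± 0.40 for Tpsb2 and 0.89 ± 0.42 for Cpa3. In SO they were 0.13 ± 0.42 for Mcpt4, 0.07 ± 0.41 for Tpsb2, 0.03 ± 0.43 for Cma1 and -0.18 ± 0.43 for Cpa3. Hdc had values of 0.68 ± 0.45 in LO, 0.80 ± 0.43 in PF and 0.90 ± 0.51 in SO, and Kit of 0.38 ± 0.27, -0.04 ± 0.26 and 0.56 ± 0.27. Over the 6 genes, 0 passed the adjusted p-value of edgeR in LO, where 2.7% of all 16605 genes did, 0 in SO, where 6.46% did, and 0 in PF, where 0.0301% did.

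Markers of other immune cells also had higher values at 32 weeks in LO, and in SO, where the proteases were close to equal. Their part in the differences was not tested. In LO 5 of 5 macrophage markers were higher (median log2 fold change 0.96) and 4 of 4 leukocyte markers (1.04), with 0 called, and the macrophage markers summed to 77.3 to 334 CPM at 32 weeks against 51.6 to 105 CPM at 12 weeks. In SO 5 of 5 macrophage markers (median 0.76) and 4 of 4 leukocyte markers (1.88) were higher. Of these, 2 and 3 were called, where 6.46% of all genes were. In PF the medians were 0.06 and 0.08.

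At an unadjusted p-value under 0.05, 3 of the 6 genes passed in LO (20.5% of all genes), 4 in PF (10.2%) and 1, Kit, in SO (19.7%). Without the mice numbered 1 these counts were 0, 0 and 1, where 3833, 2340 and 4476 of all 16538 genes passed. The proteases moved together from mouse to mouse, so the members in these counts are not separate results. The smallest adjusted p-value among the 6 in edgeR was 0.151 in LO, 0.24 in SO and 0.362 in PF, and DESeq2 called 0 members in each diet, where it called 6.56%, 8.03% and 0.295% of all genes. The change with time was compared between diets by an interaction term, and 0 of the 6 genes and 0% of all genes passed for any of the 3 pairs of diets. For PF against SO, this term was 1.09 ± 0.60 for Cma1, 1.07 ± 0.60 for Cpa3, 0.88 ± 0.57 for Tpsb2, 0.86 ± 0.58 for Mcpt4 and -0.59 ± 0.37 for Kit on the log2 scale. At an unadjusted p-value under 0.05, 0 of the 6 genes passed for this term, against 9.49% of all genes, and also 0 for the other terms (7.79% and 3.33% of all genes). DESeq2 called 0 members for any of the terms, where it called 0.224%, 0.0702% and 0% of all genes. So a difference in time course between the diets was not shown. Mice of 12 and 32 weeks were different animals, and a sequencing batch that went with the time point cannot be told apart from it, because the labels give none.

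**Figure D4:**
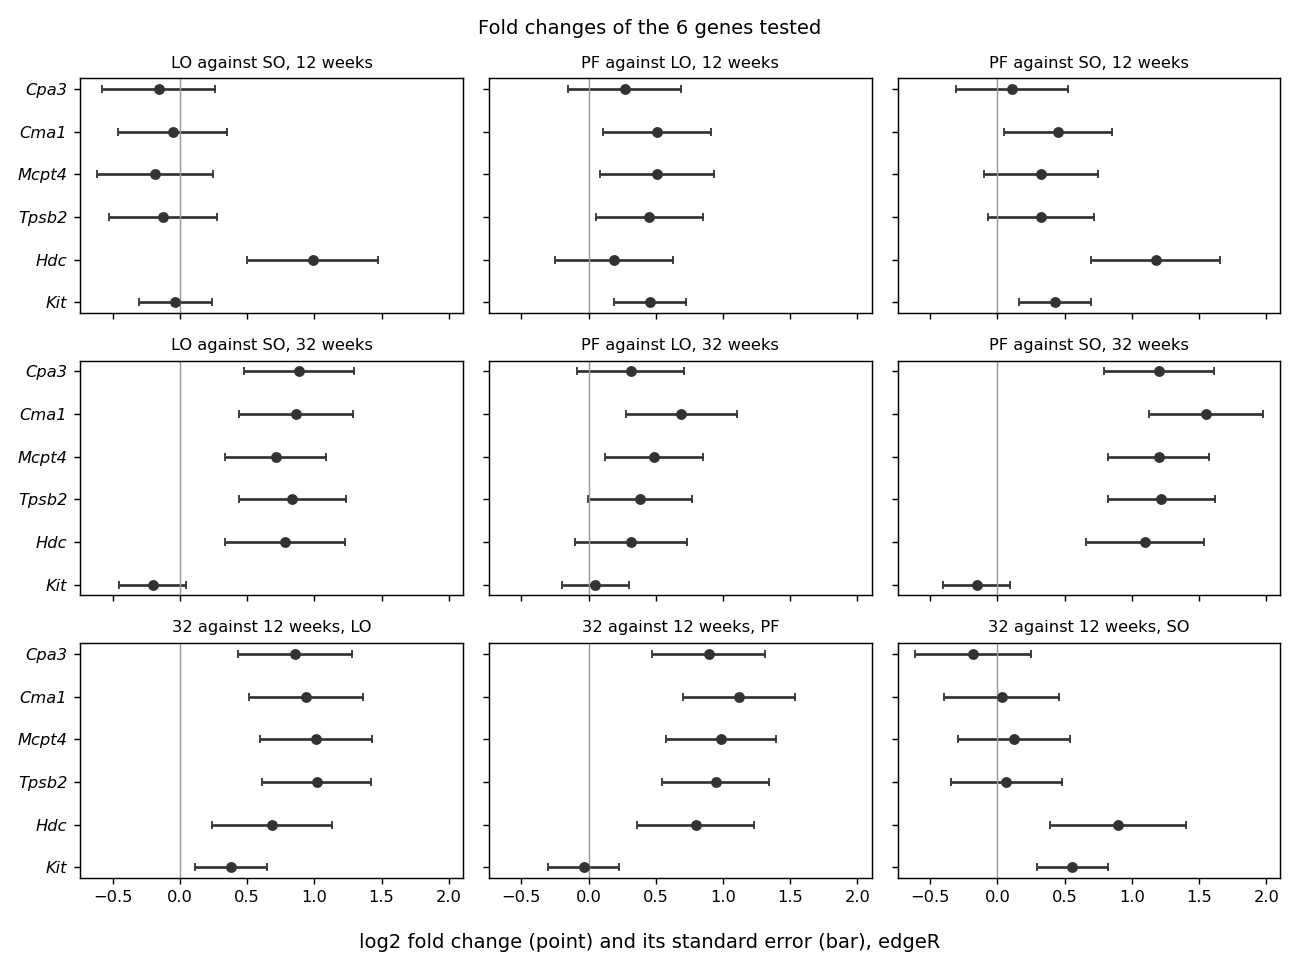
log2 fold changes (points) and their SE (bars) in edgeR for the 6 genes tested, in 6 comparisons of diets and 3 comparisons of 32 against 12 weeks. The 4 proteases and Hdc lie between 1.10 and 1.55 for PF against SO at 32 weeks, and Kit at -0.15; none of the values passed an adjusted p-value of 0.05.

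Some other immune genes rose with time in SO, where 6.46% of all genes passed the test in either direction, and in LO, where 2.7% did. Of the 4 leukocyte markers, 3 rose from 12 to 32 weeks in SO, namely Ptprc (log2 fold change 1.85), Cd3e (1.91) and Cd79a (3.01), which encode the pan-leukocyte phosphatase CD45, a T cell receptor subunit and a B cell receptor subunit. Of the 5 macrophage markers, Adgre1 (1.23) and Cd68 (1.22) rose in SO. Of 15 genes of IgE receptor and KIT signalling, 7 rose in SO, namely Syk (1.66), Inpp5d (1.24), Lat (1.88), Btk (1.67), Plcg2 (0.54), Lat2 (1.28) and Fcer1g (1.31), and Lat2 (0.97) and Fcer1g (1.05) rose in LO. Most of these signalling genes also serve B cells, T cells, macrophages or other cells with Fc receptors, and Fcer1g encodes the signalling gamma chain that several Fc receptors share. In PF, 0 of these 15 genes passed the test, where 0.0301% of all genes did, so that nothing can be read from this count. The median log2 fold change of the list was 0.49 in SO, 0.19 in LO and -0.02 in PF.

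Among the remaining genes of mast cell biology, calls came only in comparisons over time. Of 14 other genes used by mast cells, 13 were tested over all mice, and those that passed were Hpgds, prostaglandin D synthase, which rose with time in LO (log2 fold change 0.80) and SO (1.30), and Srgn, the granule proteoglycan serglycin, which rose in SO (1.17). That is 1 of 13 in LO, where 2.7% of all genes were called, and 2 of 13 in SO, where 6.46% were. Of 7 eicosanoid enzyme genes, 1, again Hpgds, rose with time in LO and SO. Of 7 genes of histamine handling and its receptors, 4 were tested over all mice and 0 passed in any comparison, and the highest in CPM were Hnmt, a histamine methyltransferase (group means of 9.38 to 11.9 CPM), and Hrh2, a histamine receptor gene (0.335 to 0.712 CPM). In diet comparisons, 0 genes of these lists passed the adjusted p-value of edgeR, where 0% of all genes did. For PF against SO at 32 weeks the median log2 fold change was 0.15 over the 13 other mast cell genes tested, 0.22 over the 7 eicosanoid genes and -0.14 over the 15 signalling genes.

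Markers of other granulocytes, of cells with KIT and of the remaining tissue were called only over time, in LO (2.7% of all genes called) and SO (6.46%). Over all mice, 2 of the 4 eosinophil markers, 2 of the 4 basophil markers and 2 of the 5 markers of other cells with KIT were tested. Of these, 1 eosinophil marker and 1 marker of other cells with KIT were called in each of the 2 diets. The eosinophil gene Prg2, major basic protein, rose with time in LO (log2 fold change 3.37) and SO (1.85), while the defining peroxidase gene Epx did not pass the filter. Among the 4 basophil markers, 0 passed the test in any comparison, with Il3ra as the most abundant, whose group means of 2.19 to 2.86 CPM came to 1.05 to 1.78 CPM without the mice numbered 1, and Ano1, a chloride channel gene of interstitial pacemaker cells and of epithelia, rose with time in LO (0.50) and SO (0.56). The smooth muscle, connective tissue and adipocyte lists had 0 calls. Of the 7 epithelial markers, Sbp, spermine binding protein of the prostate secretion, fell by 0.81 in LO and by 0.96 in SO on the log2 scale. The tissue carried the markers of VP epithelium at high levels in all groups, as the 7 epithelial markers summed to 118266 to 295822 CPM.

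From mouse to mouse, the protease genes moved together. Over 30 mice, Pearson's r of log2 CPM was 0.854 to 0.957 and Spearman's rho 0.824 to 0.919 for the 6 pairs of proteases, each with a two-sided permutation p-value of 1e-05, the smallest that 100000 permutations can give, and an adjusted p-value of 1.67e-05 for r over the 15 pairs tested. Without the 2 mice farthest from the median, r stayed at 0.807 to 0.931. Within time points r was 0.702 to 0.923 at 12 weeks and 0.904 to 0.983 at 32 weeks. With the group means taken out and permutations within groups, r was 0.780 to 0.937 and rho 0.738 to 0.900, with adjusted permutation p-values of at most 5e-05 for r and 0.000233 for rho. Hence the proteases moved together within diet and time groups as well as across them.

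Hdc moved with the proteases, and the values of Kit depended on the mice included. With group means taken out, r of Hdc with the 4 proteases was 0.674 to 0.745 and rho 0.674 to 0.740 (largest adjusted permutation p-value 0.000165 for r and 0.000345 for rho), and r was 0.668 to 0.775 without the 2 farthest mice. For Kit with the proteases r was 0.354 to 0.548 and rho 0.231 to 0.466, with adjusted permutation p-values of 0.0164 to 0.0867 for r and up to 0.269 for rho. Without the 2 farthest mice, chosen by the protease of each pair, this r was 0.302 to 0.519. Without group centring, r of Kit with the proteases was 0.375 to 0.533, was 0.166 to 0.256 without the 2 farthest mice, and came with rho of 0.203 to 0.264. Within time points the uncentred r was 0.428 to 0.593 at 12 weeks and 0.126 to 0.303 at 32 weeks. For Kit and Hdc with group means taken out, r was 0.372 (adjusted permutation p-value 0.0784). In the 24 mice left without those numbered 1, with group means taken out, r was 0.842 to 0.936 among the proteases, 0.630 to 0.693 for Hdc with the proteases and 0.557 to 0.697 for Kit with the proteases. Whether r differed between Hdc and Kit was not tested.

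**Figure D5:**
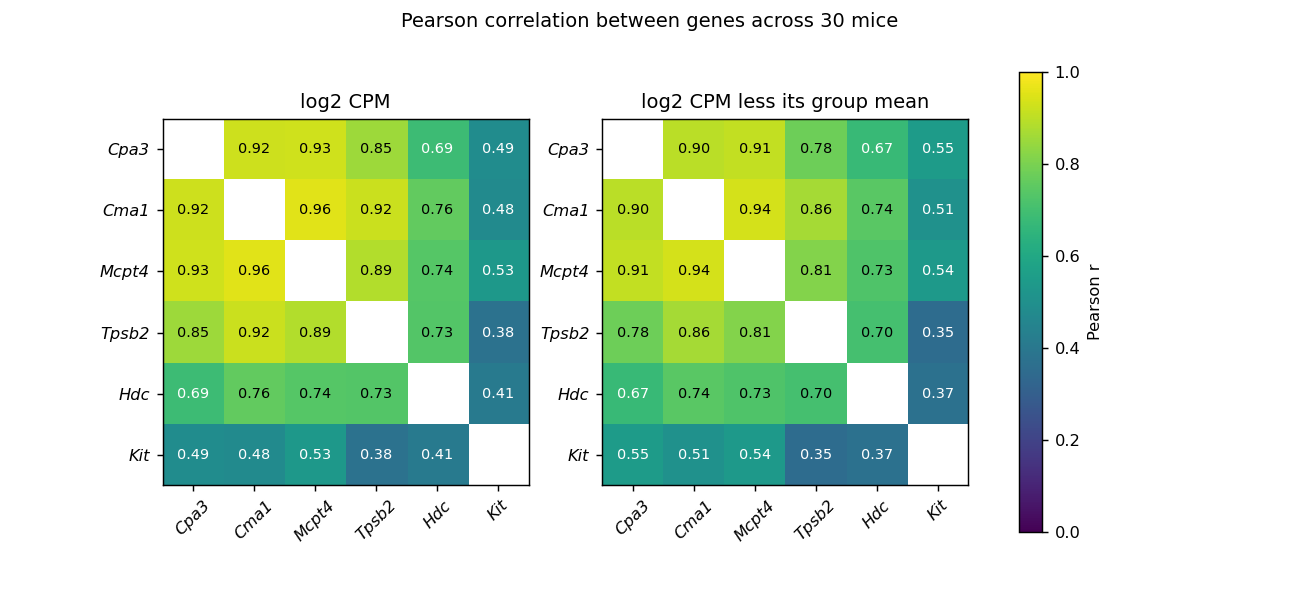
Pearson's r between the 6 genes over 30 mice, for log2 CPM (left) and for log2 CPM less the mean of its group (right), with the value written in each cell. The 6 pairs of proteases have r of at least 0.854 on the left and 0.780 on the right, and the row of Kit holds the lowest values.

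Outside the 8 genes, the genes most like the proteases were ranked by Pearson's r of group-centred log2 CPM with the mean of the 4 proteases over 30 mice, as a description. Of 16601 genes ranked, Hdc was first (r = 0.751) and Kit was at rank 294 (r = 0.514). Of the macrophage markers, Cd163 (rank 142), Csf1r (146) and Adgre1 (199) ranked above Kit, and Mrc1 (504) and Cd68 (823) below it. Of the connective tissue markers, Lum (175) and Dcn (202) ranked above Kit, and Col3a1 (670), Pdgfra (827), Col1a2 (1561) and Col1a1 (4285) below it. The 5 leading genes that are no members were Lyz1, a lysozyme gene with a close paralog (r = 0.745), Lhx6, a transcription factor gene (0.739), Fbln5, which encodes the elastic fibre protein fibulin (0.708), Cd209g, a lectin gene (0.697), and Pcdhb4, a protocadherin gene (0.682). Mrgprb1, a Mas-related receptor gene from the list of other mast cell genes, followed at rank 7 (r = 0.682). All these values share the same libraries.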

How the data were processed

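RNAseq of the VP was done on 30 mice with a stranded mRNA kit. According to the submitters' processing notes, which name TopHat2, HTSeq and GRCm38.p6, reads were aligned and counted, and the authors deposited 1 table of raw counts per gene and mouse, without normalization. The annotation release is not given in the sources used here. From the deposited counts, the rows for reads without a feature (6.67% to 12.2% of all counts, on genes or not), ambiguous reads and reads with several places were left out. Symbols came from GENCODE M21 (37607 of 39179 identifiers matched). Each mouse took its diet, time and replicate number from the labels. No 2 libraries of a group agreed within sampling noise.

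CPM is the count divided by the total on genes and multiplied by 1000000. Genes with low counts were removed with the filter of edgeR 4.0.16 (R 4.3.3) and libraries were scaled by TMM. Differences were tested by quasi-likelihood F tests, two-sided, with Benjamini-Hochberg adjustment over all genes tested and a threshold of 0.05. The 15 mice of a time point entered each diet comparison and all 30 mice each comparison over time, and the SE was derived from the F statistic. DESeq2 1.42.0, whose Wald test the study used, was an alternative, and DESeq2 with a replicate block or without single mice, and fits without the mice numbered 1, were added after seeing the data. Other alternatives were size factors of the relative log expression, no filter, a replicate block, only the diets compared, all 6 groups in 1 fit, and leaving out each mouse. Correlations were taken on log2 CPM (prior count: 2) with 100000 permutations, and a prior count of 0.5 and TMM-scaled CPM were tried. The fits were tested on simulated data. Named genes were the members, the 5 genes most like the proteases and, of each further list, those that passed the test or else the 2 highest in CPM; a few others were added after their values were seen. The members and lists were chosen with earlier results of these data known. Replicates are separate mice per the labels, and the limit for a count of 0, set at 3 counts, covers counting error only.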

Additional observations from a re-analysis of the deposited data

Results flagged for a closer look

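Within groups of 5 mice, a single mouse stood apart from the other mice in 4 of 48 combinations of gene and group, by Dixon's ratio of the gap to the range (critical value 0.71). Chance alone flags about 5% of such groups, so a few flags were to be expected among 48. Kit was at 5.31 CPM in mouse 2 of PF at 32 weeks (ratio 0.844) and at 4.75 CPM in mouse 3 of LO at 32 weeks (0.785), each the highest of its group. Cma1 was at 2.37 CPM in mouse 3 of PF at 12 weeks (0.761), the highest of its group. Cpa3 was at 0.376 CPM in mouse 1 of SO at 12 weeks (0.72), the lowest of its group.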

How the results depend on the processing

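The number of members called was 0 in edgeR for every comparison, under the other size factors, no filter, the other sets of mice in the fit and without single mice. It became 1 (Cma1) for PF against SO at 32 weeks under DESeq2 and under DESeq2 with a replicate block, and it was 0 to 1 in the DESeq2 fits without single mice, where the call held without PF mouse 3 (0.0208) and without PF mouse 4 (0.0496). The cause was not tested. With the replicate number as a replicate block in edgeR, 0 members were called in each comparison. The mice numbered 1 deviated together (correlations of 0.321 to 0.511 at 12 weeks and 0.359 to 0.483 at 32 weeks), while those of the other numbers ranged from -0.419 to 0.360. Over all numbers 5 of 15 pairs at 12 weeks and 10 of 15 at 32 weeks were above 0.1, against 18 of 60 pairs of different numbers at each time. The number thus carries a shared factor for mouse 1, and pairing by the other numbers was not shown. Without the mice numbered 1, chosen after seeing the data, edgeR called 0 members in each comparison and DESeq2 0 for PF against SO at 32 weeks. Among all genes edgeR called 459 of 16538 over time in LO, 1469 in SO, 1 of 15853 for PF against SO at 12 weeks and none elsewhere. DESeq2 called 151 of 14385 genes for PF against SO at 32 weeks. The log2 fold change then changed sign for Cpa3 in PF against SO (-0.155) and Kit in LO against SO (0.043) at 12 weeks, over time in SO for Cma1 (-0.199), Tpsb2 (-0.195) and Mcpt4 (-0.147), and over time in PF for Kit (0.0871).

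Of 60 fold changes of members, 15 changed sign when a mouse was left out, 0 of them with a log2 fold change over 0.5 in size. The 60 cover the comparisons of diets, those over time and the interaction for PF against SO, but not the other interactions. In these, signs changed as well. Without LO mouse 5 at 12 weeks, 0 of 6 genes were positive for PF against LO (3 with all mice) and 6 for LO against SO (4 with all mice). For LO against SO at 12 weeks the log2 fold change ran from -0.361 to 0.189 for Cma1, -0.579 to 0.0498 for Cpa3, -0.554 to 0.0356 for Mcpt4, -0.484 to 0.114 for Tpsb2 and -0.265 to 0.123 for Kit. Over time in SO it ran from -0.142 to 0.274 for Cma1, -0.0792 to 0.259 for Mcpt4 and -0.0803 to 0.304 for Tpsb2. For PF against LO at 32 weeks it ran from -0.00892 to 0.55 for Cpa3, -0.125 to 0.631 for Hdc and -0.224 to 0.238 for Kit. The others were Cpa3 for PF against SO at 12 weeks (-0.11 to 0.242), Hdc for PF against LO at 12 weeks (-0.157 to 0.396), Kit over time in PF (-0.314 to 0.0818) and the interaction of Hdc for PF against SO (-0.561 to 0.275). Levels on TMM-scaled libraries and correlations with the smaller prior count moved by less than the spread between mice or kept their side of the threshold. Depth limited Fcer1a and Ms4a2, which were not tested, and Hdc.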

Other observations

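Mrgprb1, which encodes a Mas-related G protein-coupled receptor, and Il1rl1, the receptor gene for interleukin-33, were chosen here after their values were seen. For PF against SO at 32 weeks their log2 fold changes were 1.02 and 0.86 in edgeR, with adjusted p-values of 0.415 and 0.38, and Il1rl1 was at rank 122 by likeness to the 4 proteases (r = 0.571).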
